A study of Arabidopsis thaliana with 27 samples.

Results

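The comparison described here set shoots of Arabidopsis plants deprived of both iron and phosphate (−Fe−P) against shoots deprived of iron alone (−Fe+P), 39 h after the plants were moved to these media. It used 6 of the 27 samples of the series, 3 per medium, and every gene whose TPM (transcripts per 1e+06 transcripts) averaged 1 or more over the 27 samples, which made 18910 of the 33602 genes listed. Wild-type Col-0 seedlings had grown for 7 days on complete medium (+Fe+P) on vertical agar plates before the transfer to −Fe−P, −Fe+P or fresh +Fe+P, and shoots were taken after 39, 52 or 76 h. Both groups compared here lacked iron and differed in the potassium phosphate of the medium, of which the methods leave a small remainder in −P. The methods name no potassium salt in its place, so potassium may differ as well, and its part was not tested. The 3 samples per group are labelled as replicates, and the number of plants in each was not stated in the sources used here. The p-values rest on the spread between replicates, pooled over the 9 groups of the series.

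Plant cells report their phosphate status through inositol pyrophosphates, which SPX-domain proteins bind. When these molecules are scarce, SPX proteins release the transcription factor PHR1 and its relatives, which bind a short promoter motif called P1BS and switch on phosphate starvation genes. The products of these genes take up and move phosphate, cut it out of organic molecules and replace phospholipids by galactolipids and sulfolipids. In iron-starved leaves another set of factors, among them bHLH38, bHLH39, bHLH100 and bHLH101, drives genes of iron uptake and transport.

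The read totals inferred from the TPM steps were, in units of 1e+06 reads, 38.6 to 53.7 per sample in the 6 samples. Leaf markers were abundant, with summed TPM of 8 genes of 73136 to 79500 in −Fe−P, against 76328 to 80438 in −Fe+P, while the −Fe−P sums of 12 root markers were 1.34 to 4.01 TPM and the −Fe+P sums 0.819 to 2.41 TPM. One library stood apart. In −Fe−P replicate 1, 671 genes lay more than 2-fold from the mean of the other 2 replicates of its group, against 55 to 229 in the other 5 samples. Its 13 seed storage markers summed to 96.9 TPM, against 5.59 to 7.15 TPM in the other 5 samples, led by CRU3 and SESA5. Its 15 clock genes summed to 1581 TPM, against 2088 to 2185 TPM in the other 5 samples. Its 20 light-harvesting antenna genes summed to 19601 TPM, against 15108 to 16639 TPM. Both sums lay within the range of the 3 +Fe+P samples of 39 h, at 1434 to 1745 TPM and 17204 to 21755 TPM. Its 12 xylem markers summed to 19.9 TPM, against 99.4 and 107 TPM in the other −Fe−P samples and 55.1 to 68.8 TPM in −Fe+P. In such bulk samples fewer cells of a type and less RNA per cell cannot be told apart. This library gave the lowest of the 3 −Fe−P values for 98 of the 141 genes called higher below, and what its composition contributes was not tested, so that results are also given without it where they change.

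At 39 h the difference between −Fe−P and −Fe+P was small in gene number and, at 2-fold or more, mostly upward. A gene was called at a limma adjusted p under 0.05 and at least a 2-fold change of log2(TPM + 0.5), a scale that understates changes of genes near or below 0.5 TPM. By this rule 141 genes (0.746% of those tested) were higher in −Fe−P and 14 (0.074%) were lower. The median log2 fold change over all genes was 0.00. Of the 141, 18 differed at least 8-fold, 24 between 4- and 8-fold and 99 between 2- and 4-fold, whereas none of the 14 reached 4-fold. Without the fold minimum, 543 genes (2.87%) were higher and 392 (2.07%) were lower. All 3 −Fe−P samples lay above all 3 −Fe+P samples in 139 of the 141, against 8.95% of all genes, and below them in each of the 14, against 8.46%. The exceptions were PHT1;1 and GSTL1, in both of which −Fe−P replicate 1 fell within the −Fe+P range. Without −Fe−P replicate 1 the calls came to 180 higher and 27 lower, and these held 133 of the 141 and 9 of the 14.

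**Figure D1:**
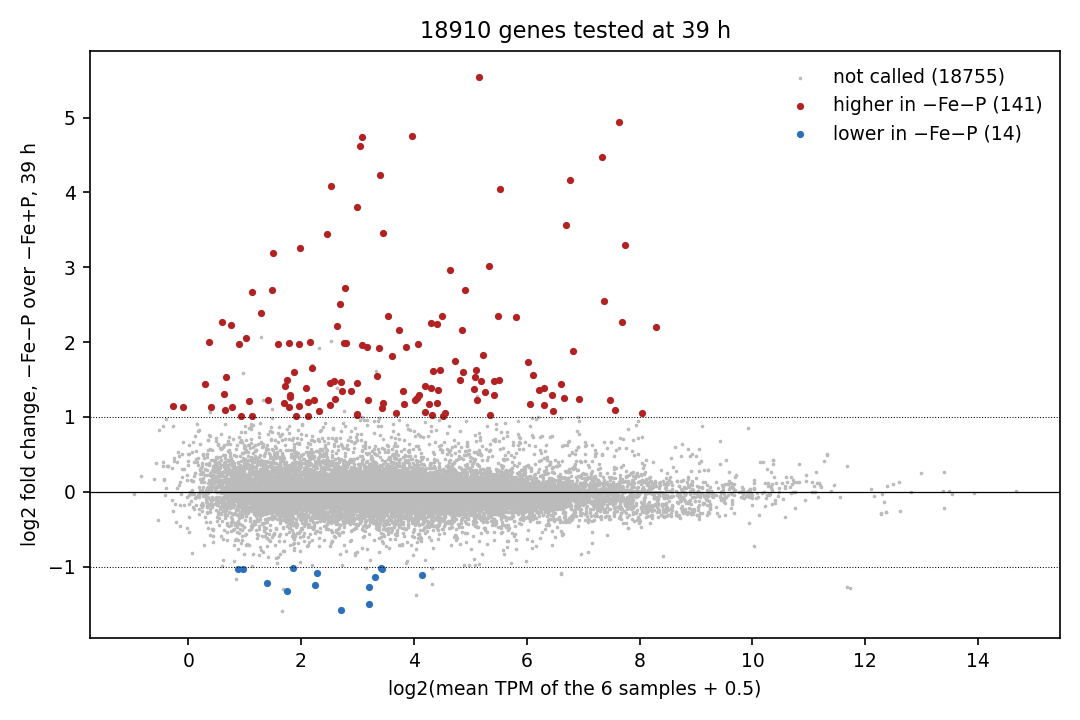
Each point is 1 of the 18910 genes tested, with the log2 of its mean TPM plus 0.5 over the 6 samples on the x axis and its log2 fold change of −Fe−P over −Fe+P at 39 h on the y axis. The 141 genes called higher in −Fe−P (red) reach 5.54, while the 14 called lower (blue) stop at −1.58; dotted lines mark 2-fold.

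The 12 genes with the highest log2 fold change were a mixture of known phosphate starvation genes and genes without a symbol. AT1G23110, annotated only as a fold protein, had 54.2, 66.3 and 87.4 TPM in −Fe−P, against 0.547, 0.873 and 1.74 TPM in −Fe+P. Its log2 fold change of 5.54 ± 0.26 (standard error throughout) was the highest in the table (adjusted p = 1.48e-12). Every −Fe−P sample was far above every −Fe+P sample, and −Fe+P replicate 3 was the highest of its group. AT5G20790, of unknown function, was one of the more abundant of the 12, with 281, 291 and 351 TPM in −Fe−P, against 9.01, 12.4 and 21.2 TPM in −Fe+P (4.47 ± 0.26, adjusted p = 3.48e-11). AT3G25240, a DUF506 protein, was nearly silent with phosphate, at 11.8, 16.0 and 18.3 TPM in −Fe−P, against 0.0762, 0.0648 and 0.288 TPM in −Fe+P. The reads behind these values were 1336 and 12, a ratio of 109.6 per total read with an exact counting interval at 95% of 62.5 to 213, which covers counting error only (log2 fold change 4.62 ± 0.19, adjusted p = 3.60e-13). AT3G43110, an uncharacterized protein, had 21.8, 14.6 and 22.0 TPM in −Fe−P, against 0.226, 0.608 and 0.925 TPM in −Fe+P (4.23 ± 0.25, adjusted p = 3.48e-11). AT1G08310, an alpha/beta-hydrolase, had 14.6, 13.0 and 15.2 TPM in −Fe−P, against 0.391, 0.444 and 0.905 TPM in −Fe+P (3.80 ± 0.18, adjusted p = 1.83e-12). In each of these 5 genes the lowest −Fe−P sample was more than 10-fold above the highest −Fe+P sample, and −Fe+P replicate 3 was the highest of its group.

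**Figure D2:**
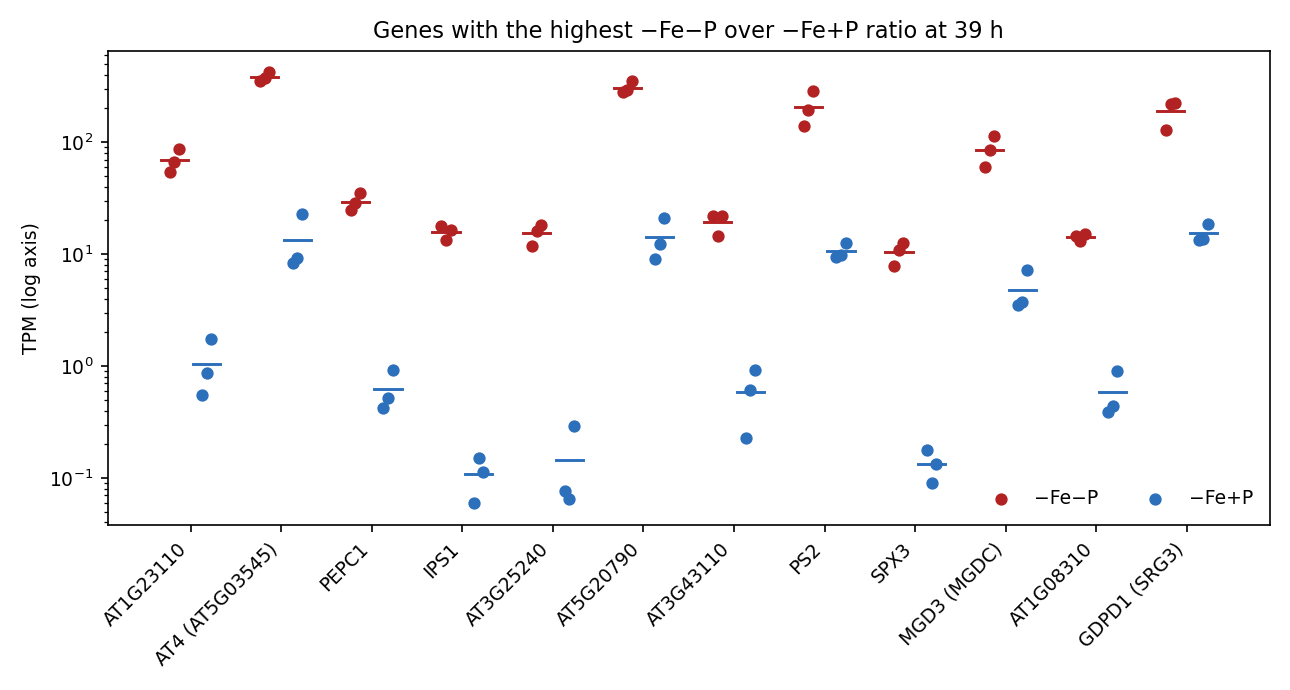
TPM on a log axis of the 12 genes with the highest −Fe−P over −Fe+P ratio among those with at least 5 TPM in −Fe−P, with 3 samples per medium as points and their mean as a line. No gene has overlapping groups; AT5G03545, AT5G20790, PS2 and GDPD1 exceed 100 TPM in all −Fe−P samples.

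The promoters of these genes are shown because PHR1 is known to bind P1BS, whose letters GNATATNC read the same on both strands. Of the 12 genes, 8 held the motif between 250 bases before and 50 bases after the annotated gene start. One site each is printed with 11 bases on either side, in capitals for the motif, on the strand of the gene, from the RefSeq assembly TAIR10.1, with the first motif base counted from the start.
AT1G23110, chr1:8198392-8198421, strand −, motif from −79: ttcataagaatGAATATGCgacacacacta
AT4 (AT5G03545), chr5:894545-894574, strand +, motif from −26: tttggtaattgGCATATTCcttttagaaga
AT3G25240, chr3:9192401-9192430, strand +, motif from −81: tagaaagctacGAATATTCcaagctaaatt
AT3G43110, chr3:15092586-15092615, strand −, motif from −83: aaaacatgaagGAATATACgacagtgtcag
PS2, chr1:27466547-27466576, strand −, motif from −217: tttgggtaacgGAATATTCttctcttattc
SPX3, chr2:18606309-18606338, strand +, motif from −90: gctaaagctaaGCATATCCgctttcatatt
AT1G08310, chr1:2618605-2618634, strand +, motif from −31: attgggataggGAATATTCgaaaatcatcc
GDPD1 (SRG3), chr3:350055-350084, strand −, motif from −63: ggcgatccaaaGAATATTCcaagatcccat
The 8 sites lay between 26 and 217 bases before the start. PEPC1, IPS1, AT5G20790 and MGD3 had no such letters in this window, and PEPC1 and IPS1 had 2 each within 1000 bases before the start. Among all 141 genes called higher, 52 (36.9%) held the motif in the near window, against 1 of the 14 called lower (7.1%) and 1173 of the 18681 tested genes with a window (6.3%). The share was 72.2% (13 of 18) in genes that differed at least 8-fold, 41.7% (10 of 24) in those of 4- to 8-fold and 29.3% (29 of 99) in those of 2- to 4-fold. Over the 1000 bases before the start it was 50.4% in the 141 genes, 28.6% in the 14 and 20.3% in all tested genes. These shares describe letters in the sequence, and neither binding nor accessibility was measured.

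Of the signalling genes of phosphate starvation, 7 of 17 measured were higher in −Fe−P and none was lower, against 0.746% higher in all genes; their median log2 fold change was 0.24. The SPX genes SPX1, SPX2 and SPX3, which encode the phosphate sensors named above and repress the response, were all called. SPX3 had 7.87, 10.8 and 12.5 TPM in −Fe−P, against 0.176, 0.0898 and 0.133 TPM in −Fe+P. The groups were far apart, with 978 and 12 reads in all (ratio 80.2, counting interval 45.7 to 156; log2 fold change 4.08 ± 0.20, adjusted p = 1.93e-12). SPX1 was far more abundant, with 325, 404 and 439 TPM in −Fe−P, against 35.1, 36.2 and 45.6 TPM in −Fe+P (3.30 ± 0.19, adjusted p = 3.93e-11). SPX2 changed less (1.49 ± 0.12, adjusted p = 1.14e-08), and SPX4 had a log2 fold change of −0.33 (adjusted p = 0.118). The central factor PHR1 had 26.7, 27.5 and 27.8 TPM in −Fe−P, against 30.5, 25.8 and 29.3 TPM in −Fe+P, overlapping groups with a log2 fold change of −0.06 ± 0.08 (adjusted p = 0.803). Its relative PHL1 also missed the call (−0.19, adjusted p = 0.365). Of the kinases of the VIP family that make inositol pyrophosphates, AT5G15070 was higher by less than 2-fold (0.92 ± 0.14, adjusted p = 0.000114) and AT3G01310 was not called (−0.17 ± 0.14, adjusted p = 0.626).

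IPS1 and AT4 are noncoding RNAs that carry a site for miR399, bind this microRNA without being cut and so shield its target PHO2, an enzyme that marks phosphate transporters for removal. AT4 was the most abundant of the 12 top genes, with 353, 377 and 421 TPM in −Fe−P, against 8.30, 9.15 and 22.6 TPM in −Fe+P (4.94 ± 0.29, adjusted p = 4.71e-11). IPS1 had 17.6, 13.4 and 16.5 TPM in −Fe−P, against 0.0595, 0.152 and 0.113 TPM in −Fe+P, that is 869 and 6 reads (ratio 143, counting interval 65.2 to 389; log2 fold change 4.75 ± 0.22, adjusted p = 1.04e-12). Neither gene had a −Fe−P sample anywhere near the −Fe+P range. The sequences below are given to show the shared site, with miR827 as the one microRNA whose precursor was called. The mature microRNAs have their seed (bases 2 to 8) in capitals, and the decoy sites have in capitals the 3 bases that bulge out opposite the place where a target is cut.
miR399b: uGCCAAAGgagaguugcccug
miR827: uUAGAUGAccaucaacaaacu
IPS1, chr3:3051224-3051247, strand +: ttgggcaacttCTAtcctttggca
AT4 (AT5G03545), chr5:895149-895172, strand +: ttgggcaacttCGAtcctttggca
PHO2, chr2:14282106-14282126, strand −: tagggcaaatcttctttggca
Both decoys paired with miR399b over 18 Watson-Crick and 2 G:U pairs of 21 bases, and each site lay in the single annotated exon of its gene. PHO2 was searched only for stretches without a bulge, and the 5 best-paired were kept. All of these lay in exon 2 of 9, before the coding sequence. The PHO2 site printed was the best paired of them with miR399b, also with 18 Watson-Crick and 2 G:U pairs. PHO2 transcripts were themselves higher, with 79.2, 161 and 196 TPM in −Fe−P, against 54.6, 53.4 and 62.1 TPM in −Fe+P (1.26 ± 0.18, adjusted p = 9.64e-05). The groups did not overlap, but −Fe−P replicate 1 was much closer to −Fe+P than the other 2 replicates. The precursor RNA of miR827, which targets the ubiquitin ligase gene NLA, had 1.86, 1.93 and 3.04 TPM in −Fe−P, while in −Fe+P it was at 0 in 2 samples and at 0.293 TPM in the other, or 24 reads and 1 read (ratio 23.6, counting interval 3.85 to 971). NLA itself was not called (−0.19 ± 0.14, adjusted p = 0.535). Precursors of miR399 were near the detection limit at this time. MIR399d had 0.646, 0.251 and 0.317 TPM in the −Fe−P samples and was listed at 0 in the 3 −Fe+P samples. MIR399c had 0.283, 0.882 and 0.555 TPM in −Fe−P, against 0, 0.240 and 0 TPM in −Fe+P. It was not called (0.88, adjusted p = 0.0562), but without −Fe−P replicate 1 it was (1.08 ± 0.28, adjusted p = 0.0198). Libraries prepared from polyadenylated RNA do not measure mature microRNAs.

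Of the phosphate transporters, 4 of 19 measured were higher, against 0.746% of all genes, and the list had a median log2 fold change of 0.04. The glycerol-3-phosphate permease G3Pp1 had 68.6, 103 and 106 TPM in −Fe−P, against 14.3, 16.7 and 22.7 TPM in −Fe+P (2.34 ± 0.17, adjusted p = 1.91e-09). The high-affinity importer PHT1;4 had 19.6, 39.0 and 45.6 TPM in −Fe−P, against 5.72, 6.23 and 7.69 TPM in −Fe+P (2.25 ± 0.20, adjusted p = 3.85e-08). The exporter gene PHO1;H1 had 15.0, 37.5 and 39.6 TPM in −Fe−P, against 8.27, 8.58 and 9.94 TPM in −Fe+P (1.61 ± 0.22, adjusted p = 4.05e-05). In all 3 genes each −Fe−P sample exceeded each −Fe+P sample. PHT1;1, another importer, had 1.63, 7.17 and 9.09 TPM in −Fe−P, against 1.81, 1.38 and 1.54 TPM in −Fe+P (1.38 ± 0.37, adjusted p = 0.0326). Replicates 2 and 3 of −Fe−P were high, replicate 1 lay within the −Fe+P range, and without replicate 1 the log2 fold change was 2.05. Its neighbour PHT1;2 showed the same split, with 0.677, 3.93 and 5.01 TPM in −Fe−P, against 0.933, 0.675 and 0.845 TPM in −Fe+P, and was not called (1.22 ± 0.38, adjusted p = 0.0684); without −Fe−P replicate 1 it was (1.91 ± 0.28, adjusted p = 8.78e-05). The 2 genes are near-identical copies, and reads can be shared between them. The organellar carriers of the PHT2, PHT3 and PHT4 families lay between −0.14 and 0.15 on the log2 scale, none called. This range held PHT4;4, listed as ANTR2, which carries ascorbate into chloroplasts (−0.10 ± 0.09, adjusted p = 0.658). PHO1, which loads phosphate into the xylem, had a log2 fold change of 0.42 (adjusted p = 0.468).

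Enzymes that release phosphate from other molecules gave 10 calls among 29 measured, all higher, against 0.746% higher in all genes. PEPC1 in these data is a phosphatase of phosphoethanolamine and phosphocholine, and it had 25.0, 28.4 and 35.2 TPM in −Fe−P, against 0.423, 0.517 and 0.926 TPM in −Fe+P (4.75 ± 0.25, adjusted p = 9.85e-12). PS2, a pyrophosphate phosphatase, had 139.9, 193 and 285 TPM in −Fe−P, against 9.38, 9.85 and 12.6 TPM in −Fe+P (4.17 ± 0.24, adjusted p = 2.42e-11). For both, the lowest −Fe−P sample was replicate 1 and still lay at more than 10 times the highest −Fe+P sample. Among purple acid phosphatases, PAP14 was hardly detected with phosphate, at 764 reads in −Fe−P and 5 in −Fe+P (ratio 150.4, counting interval 64.2 to 464; log2 fold change 3.19 ± 0.27, adjusted p = 1.99e-08). PAP17, PAP12, PAP24, PAP16 and the family member AT1G13750 followed with log2 fold changes of 2.55, 1.73, 1.44, 1.34 and 1.93. The secreted and vacuolar phosphatases PAP10 and PAP26 were not called, PAP10 because it differed by less than 2-fold (0.56 ± 0.10, adjusted p = 0.00135) and PAP26 with −0.10 ± 0.07, adjusted p = 0.554. RNS1, a secreted ribonuclease, had 1.67, 2.43 and 4.36 TPM in −Fe−P, against 0.154, 0.393 and 0.234 TPM in −Fe+P (2.06 ± 0.27, adjusted p = 1.91e-05), with no overlap. Its vacuolar relative RNS2 was higher by less than 2-fold (0.75 ± 0.08, adjusted p = 7.96e-07). The soluble pyrophosphatase PPa4 was called as well (1.38 ± 0.13, adjusted p = 1.61e-07), whereas PPa1 and PPa2 were within 0.05 of 0 on the log2 scale.

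Genes of membrane lipid exchange held the largest share of calls among the 5 phosphate lists, 12 of 17 measured against 0.746% of all genes, with a median log2 fold change of 1.23 against 0.00 in all genes. They cover both sides of the exchange, namely enzymes that break phospholipids down and enzymes that build lipids without phosphate. On the first side, GDPD1 (SRG3), a glycerophosphodiester phosphodiesterase, had 128, 220.4 and 225 TPM in −Fe−P, against 13.5, 13.7 and 18.8 TPM in −Fe+P (3.57 ± 0.19, adjusted p = 1.37e-11). The phospholipase PLDZETA2 (PLDP2) had 11.6, 21.0 and 26.2 TPM in −Fe−P, against 0.929, 1.02 and 1.89 TPM in −Fe+P (3.46 ± 0.21, adjusted p = 6.46e-11). Both had well separated groups, with −Fe−P replicate 1 the lowest of its group. GDPD2, GDPD5, GDPD6 and the phospholipase C gene NPC4 reached 1.83, 1.23, 1.13 and 1.01 on the log2 scale. On the other side, MGD3 (MGDC) makes galactolipid. It had 60.2, 85.0 and 112 TPM in −Fe−P, against 3.51, 3.73 and 7.23 TPM in −Fe+P (4.04 ± 0.26, adjusted p = 1.83e-10). Its partner MGD2 had 57.1, 73.8 and 81.8 TPM in −Fe−P, against 6.33, 8.45 and 10.5 TPM in −Fe+P (3.01 ± 0.16, adjusted p = 1.37e-11). The groups of both genes were well apart. MGD1, the housekeeping enzyme of the same family, was not called (0.25 ± 0.09, adjusted p = 0.121). The sulfolipid enzymes SQD2, SQD1 and UGP3 gave log2 fold changes of 2.27, 2.21 and 1.45, at mean levels of 343, 517 and 143 TPM in −Fe−P. DGD1, which adds the second galactose, passed narrowly (1.02 ± 0.11, adjusted p = 1.46e-06), and DGD2 was not called (0.16 ± 0.11, adjusted p = 0.536).

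PEP carboxylase bypasses a step of glycolysis and is activated by its kinases. PPCK1, one of these kinases, had 57.3, 74.0 and 94.1 TPM in −Fe−P, against 11.3, 15.4 and 15.7 TPM in −Fe+P (2.36 ± 0.16, adjusted p = 2.90e-10). PPCK2 had 3.74, 4.10 and 5.23 TPM in −Fe−P, against 0.311, 0.159 and 0.265 TPM in −Fe+P (2.70 ± 0.21, adjusted p = 3.06e-09), and the carboxylase PPC1 had 74.4, 141 and 162 TPM in −Fe−P, against 45.6, 48.7 and 50.6 TPM in −Fe+P (1.30 ± 0.17, adjusted p = 1.66e-05). The groups did not overlap in any of the 3. PPC2 and PPC3 were not called.

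Together the 5 phosphate lists covered 36 of the 141 genes called higher, or 36 of 87 measured members (112 listed) against 0.746% of all genes, with no member lower and a median log2 fold change of 0.56. The other 105 included 98 genes in no list. Those named in this paragraph were chosen from them after their values were seen. PFA-DSP1, PFA-DSP2 and PFA-DSP4, phosphatases that hydrolyse inositol pyrophosphates, had log2 fold changes of 1.94, 1.29 and 1.75. The sulfate transporter gene SULTR1;3 had 6.41, 11.7 and 13.9 TPM in −Fe−P, against 2.44, 1.88 and 2.26 TPM in −Fe+P (1.99 ± 0.19, adjusted p = 1.04e-07). SULTR3;4, known as a distributor of phosphate despite its name, had 6.10, 13.1 and 15.0 TPM in −Fe−P, against 3.06, 4.14 and 3.57 TPM in −Fe+P (1.46 ± 0.19, adjusted p = 2.06e-05). The groups were separate in both. BAM5, a beta-amylase, had 44.9, 48.6 and 60.4 TPM in −Fe−P, against 6.98, 7.16 and 8.23 TPM in −Fe+P (2.70 ± 0.26, adjusted p = 1.90e-07). WRKY45, a factor reported to activate PHT1;1, reached 1.30, and the mitochondrial dicarboxylate carrier gene DIC3 reached 2.35. AT5G53048, at 2.96, is antisense to a neighbouring gene, and without a stated strand setting its reads cannot be told from those of that gene.

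Outside phosphate use, 2 of 20 measured genes of ascorbate synthesis and recycling were called higher. This count and those of the lists that follow stand against 0.746% of all genes called higher and 0.074% called lower. VTC4, a phosphatase that acts on L-galactose 1-phosphate and on inositol phosphate, had 89.0, 113 and 116 TPM in −Fe−P, against 34.3, 40.7 and 47.8 TPM in −Fe+P (1.37 ± 0.10, adjusted p = 2.38e-09). VTC1, listed as CYT1 and responsible for GDP-mannose, had 226, 282 and 268 TPM in −Fe−P, against 116, 113 and 133 TPM in −Fe+P (1.09 ± 0.09, adjusted p = 1.51e-08). All −Fe−P samples were above all −Fe+P samples in both genes. VTC2, which catalyses the committed step, differed by less than 2-fold (0.47 ± 0.12, adjusted p = 0.022), and the list had a median of 0.01. NF-YA7 was the only called member of the 10 NF-YA subunits of CCAAT-binding factors, with 24.4, 24.9 and 29.1 TPM in −Fe−P, against 9.77, 8.11 and 10.7 TPM in −Fe+P (1.42 ± 0.12, adjusted p = 3.87e-08). The other 9 lay above 0 too, between 0.04 and 0.59. Of 15 anthocyanin genes all had a log2 fold change above 0 with a median of 0.68, but only the regulator MYB90 was called (1.06 ± 0.30, adjusted p = 0.043), and the biosynthetic gene TT4 passed the adjusted p alone (0.68 ± 0.16, adjusted p = 0.0169). Drought and abscisic acid genes gave 2 calls of 13, KIN1 (1.22 ± 0.32, adjusted p = 0.0271) and the proline synthesis gene P5CS1 (1.01 ± 0.13, adjusted p = 1.92e-05). The jasmonate-responsive storage protein gene VSP2 was higher (1.16 ± 0.31, adjusted p = 0.0309) and the defensin gene PDF1.2 was lower, in a list of 12 whose other members were not called. Without −Fe−P replicate 1, KIN1 (1.05), VSP2 (0.87), GDPD6 (0.98) and PDF1.2 (−1.32) no longer passed.

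**Figure D3:**
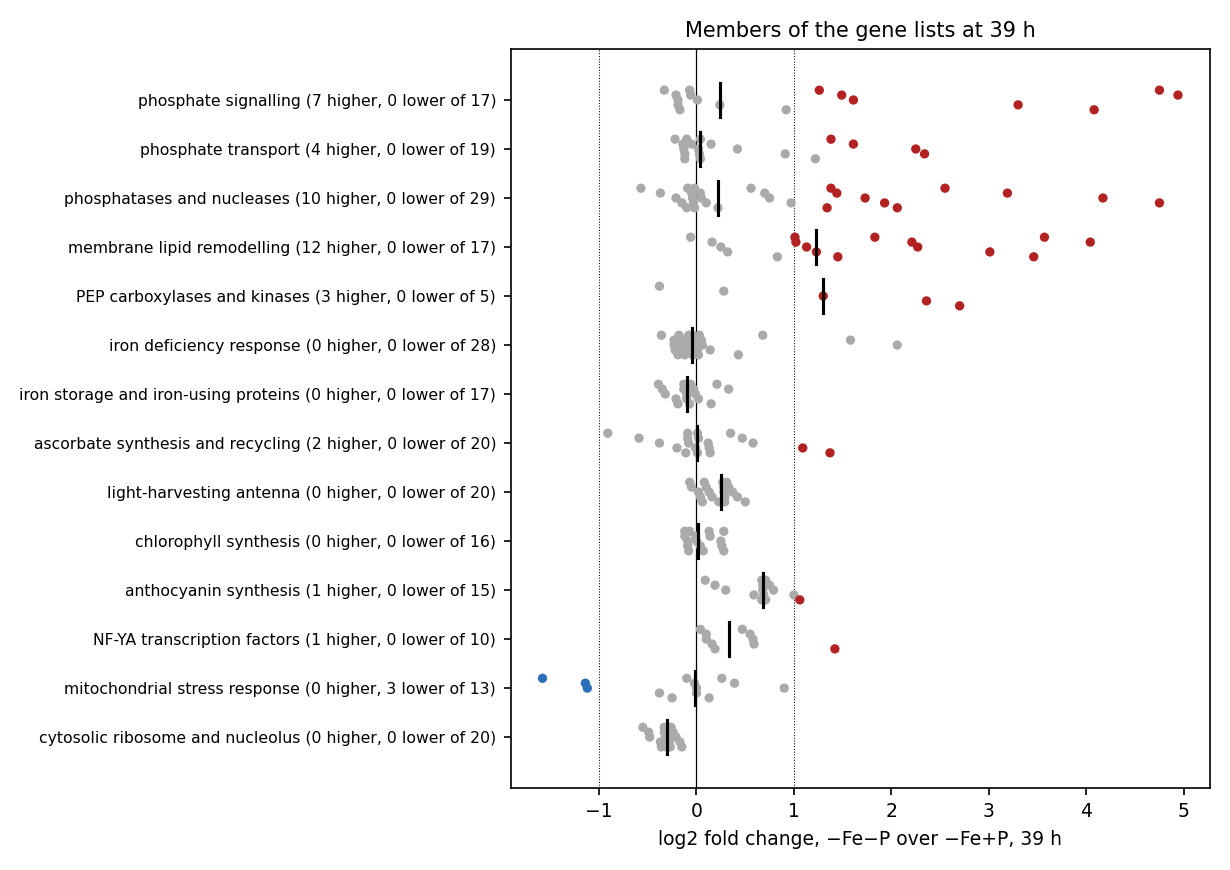
Each point is the log2 fold change of −Fe−P over −Fe+P at 39 h of 1 measured member of the 14 gene lists on the y axis, red where called higher, blue where called lower and grey otherwise; black bars are list medians and dotted lines mark 2-fold. Red points are concentrated in the phosphate lists, with 12 of 17 in membrane lipid remodelling, while the iron lists have none.

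Neither list of iron genes held a call. The 28 measured iron deficiency genes had a median log2 fold change of −0.05. For bHLH39, a regulator of iron uptake, the values were 274, 350.1 and 397 TPM in −Fe−P, against 297, 343 and 425 TPM in −Fe+P, which overlapped (−0.06 ± 0.43, adjusted p = 0.97). The peptide gene AT1G47400 (IMA1), which signals iron lack, had 381, 451 and 484 TPM in −Fe−P, against 381, 405 and 589.8 TPM in −Fe+P (−0.04 ± 0.30, adjusted p = 0.969), again overlapping. The same list had a median of 2.02 and 19 calls (0.555% of all genes were called higher) when −Fe+P was set against +Fe+P, a comparison that shares the −Fe+P samples. Genes of ferritins and of proteins that use iron, 17 measured, had a median of −0.10 in −Fe−P against −Fe+P, and of −2.31 with 12 lower (0.439% in all genes) in −Fe+P against +Fe+P. FER1, a ferritin that stores iron in plastids, had 4.28, 4.44 and 4.79 TPM in −Fe−P, against 5.15, 5.17 and 4.31 TPM in −Fe+P, with 289, 231 and 83.5 TPM in +Fe+P. Its −Fe−P and −Fe+P values overlapped far below +Fe+P (−0.10 ± 0.36, adjusted p = 0.941).

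The iron list did depend on 1 library. The hydroxylase CYP82C4, which makes the iron-mobilising coumarin sideretin, had 0.0710, 5.41 and 5.70 TPM in −Fe−P, against 0.248, 0.0753 and 0.168 TPM in −Fe+P (2.06 ± 0.70, adjusted p = 0.0997). AT3G13610 (F6'H1), which starts coumarin synthesis, had 0.262, 3.45 and 4.04 TPM in −Fe−P, against 0.238, 0.162 and 0.540 TPM in −Fe+P (1.58 ± 0.48, adjusted p = 0.0621). In both genes replicates 2 and 3 of −Fe−P were high and replicate 1 was at or below the −Fe+P level. Without replicate 1 the log2 fold changes were 3.20 and 2.41 (adjusted p = 0.00122 and 0.000248), and the reductase gene FRO2 was called at 1.10. The sum of 12 root markers was lowest in replicate 1 among the −Fe−P samples but lower still in replicate 2 of −Fe+P, with 1.34, 4.01 and 3.52 TPM in −Fe−P, against 2.41, 0.819 and 1.94 TPM in −Fe+P, and its part in these values was not tested. Other genes called only without replicate 1 included AT5G15070, PAP25, PAH1 and the flavonoid enzyme gene TT7 upward, and BT2, DREB26 and the nitrate reductase gene NIA1 downward at −1.46, −1.86 and −1.14.

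The 14 genes lower in −Fe−P were of modest size and mostly in no list (10 of 14). Of the 13 measured mitochondrial stress genes, 3 were lower, against 0.074% of all genes. As a whole this list did not fall, with a median log2 fold change of −0.02, 5 members above 0 and 8 below. Upward, 1 member passed the adjusted p without reaching 2-fold. AT5G51440, a small heat shock-like chaperone, had 2.59, 3.12 and 2.57 TPM in −Fe−P, against 9.35, 8.16 and 10.3 TPM in −Fe+P, with 2.67, 2.92 and 2.27 TPM in +Fe+P (−1.58 ± 0.18, adjusted p = 1.85e-06). TOM7-2, a subunit of the outer membrane import pore, had 6.08, 5.37 and 5.55 TPM in −Fe−P, against 13.9, 13.6 and 11.9 TPM in −Fe+P, with 9.27, 7.61 and 7.01 TPM in +Fe+P (−1.14 ± 0.15, adjusted p = 3.12e-05). AT2G21640, annotated as a marker of oxidative stress, had 14.3, 9.05 and 9.16 TPM in −Fe−P, against 23.6, 22.3 and 24.8 TPM in −Fe+P, with 9.98, 9.96 and 8.08 TPM in +Fe+P (−1.12 ± 0.18, adjusted p = 0.00028). In each of the 3, −Fe+P was the highest group and −Fe−P did not overlap it. Set against +Fe+P, −Fe−P differed by log2 fold changes of 0.07, −0.45 and 0.18 in these genes. The log2 fold changes of −Fe+P over +Fe+P were 1.65, 0.69 and 1.30. This direction was not particular to the 3 genes. Of all 14 genes called lower, 11 had a log2 fold change of −Fe+P over +Fe+P above 0. In that comparison 2 of the 14 were called higher and 1 lower, against 0.555% and 0.439% of all genes. These comparisons share samples with the one described here. The alternative oxidase gene AOX1A, the usual reporter of the mitochondrial stress response, was not called (−0.10 ± 0.15, adjusted p = 0.837).

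The other lower genes were diverse. RR16, a cytokinin response regulator, had 3.84, 4.83 and 6.13 TPM in −Fe−P, against 11.3, 13.8 and 12.3 TPM in −Fe+P (−1.27 ± 0.16, adjusted p = 9.20e-06). AT5G18600, a thioredoxin-like protein, had 2.97, 2.13 and 1.91 TPM in −Fe−P, against 6.71, 5.15 and 6.65 TPM in −Fe+P (−1.24 ± 0.25, adjusted p = 0.00386). PDF1.2 had 3.17, 5.45 and 4.19 TPM in −Fe−P, against 13.7, 17.6 and 8.50 TPM in −Fe+P (−1.50 ± 0.43, adjusted p = 0.0451). The groups were separate in each, although the values of PDF1.2 were widely spread. GLN1;4, a cytosolic glutamine synthetase, had 1.58, 3.23 and 3.14 TPM in −Fe−P, against 7.52, 6.65 and 4.13 TPM in −Fe+P, with 11.3, 16.0 and 12.1 TPM in +Fe+P (−1.08 ± 0.20, adjusted p = 0.00189), so that both iron-free media were below +Fe+P. The expansin EXPA8 (−1.02 ± 0.28, adjusted p = 0.0334) and the receptor-like kinase CRK30 (−1.03 ± 0.12, adjusted p = 3.07e-06) were just past the fold minimum. Without −Fe−P replicate 1 these last 3 lay at −0.80, −0.99 and −0.93 and were not called.

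**Figure D4:**
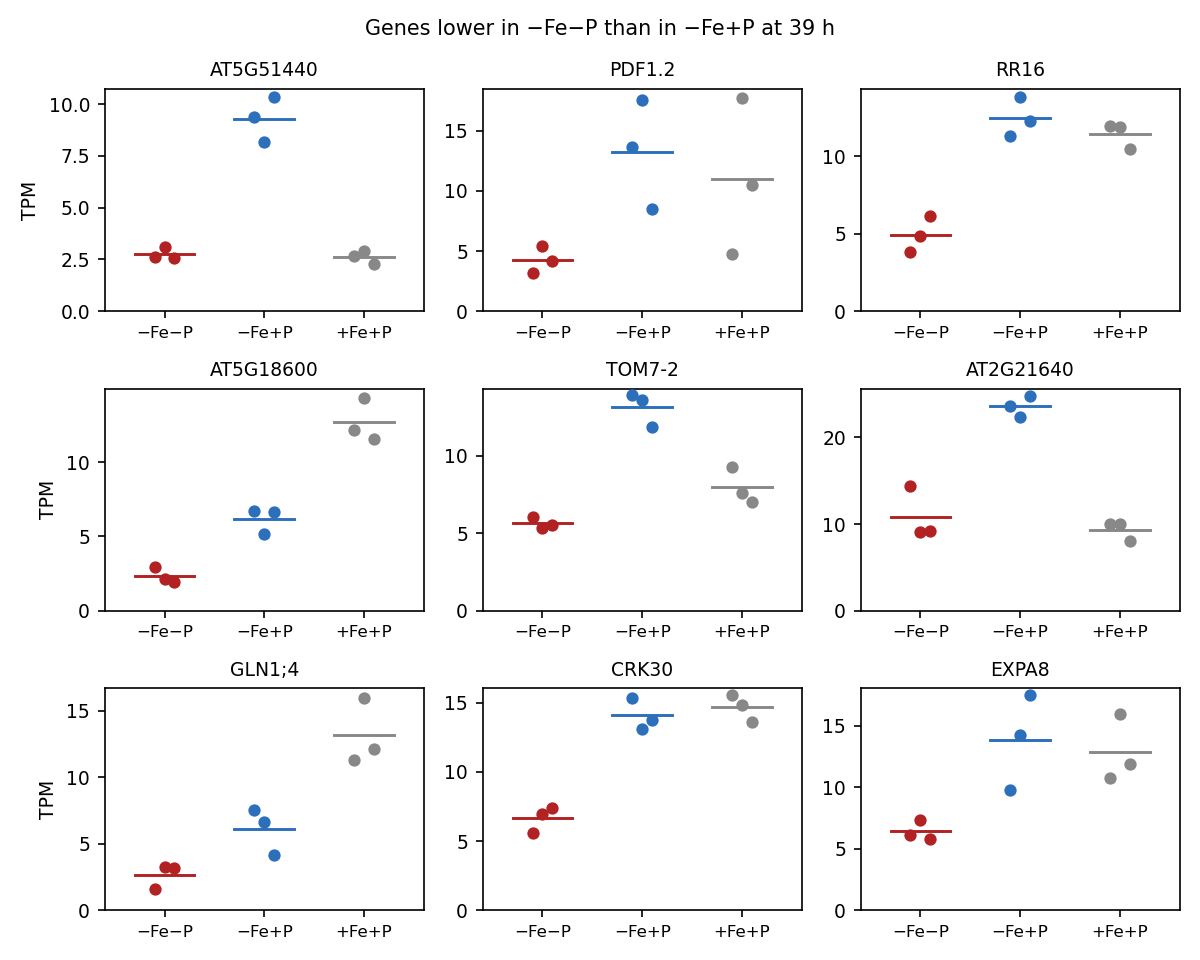
TPM at 39 h of the 9 genes called lower whose −Fe+P mean was at least 5 TPM, so that the other genes called lower are not shown. Points are the 3 samples per medium and the line is their mean. Each panel has its own axis from 0. −Fe−P lies below −Fe+P in every panel, and in AT5G51440, TOM7-2 and AT2G21640 the +Fe+P samples are also below −Fe+P. Of all 14 genes called lower, 11 had a log2 fold change of −Fe+P over +Fe+P above 0.

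None of the 20 ribosomal and nucleolar genes was called. All 20 log2 fold changes were below 0, with a median of −0.31 against 0.00 in all genes, and 8 of the 20 passed the adjusted p without reaching 2-fold, while 12 did not pass it (2.07% of all genes passed it downward). The nucleolin gene NUC-L1 had 183, 176 and 194 TPM in −Fe−P, against 269, 234 and 274 TPM in −Fe+P (−0.49 ± 0.12, adjusted p = 0.0157), with separate groups. Light-harvesting antenna genes (median 0.25) and chlorophyll synthesis genes (median 0.02) gave no call among 20 and 16. The antenna sums were 19601, 16639 and 15394 TPM in −Fe−P, against 16431, 15108 and 15772 TPM in −Fe+P. The highest was that of −Fe−P replicate 1, and its part in the antenna median was not tested. The study's list of photosynthesis-related genes, which was chosen on this series and is not independent evidence, gave 1 call of 31, GDPD6, against 0.746% of all genes called higher. The transcription factor gene bZIP58, which the study goes on to examine, had 1.14, 2.35 and 2.41 TPM in −Fe−P, against 1.75, 2.33 and 2.14 TPM in −Fe+P, overlapping groups that were not called (−0.10 ± 0.23, adjusted p = 0.899). The 15 clock genes had a median of 0.01 and no call.

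The genes called at 39 h were followed to the later samples, which were taken separately. Of the 141 higher genes, 127 were called higher at 52 h (1.21% of all genes) and 135 at 76 h (4%), with 125 at both times. The median log2 fold change of the 141 was 1.49, 1.91 and 2.66 at 39, 52 and 76 h. Called at neither later time were 4 genes, namely the glycine-rich protein gene GRP9, the peroxidase genes AT2G18150 and AT4G36430, and the expansin gene EXPA17. The change of the difference was tested at an adjusted p under 0.05 with no fold minimum, and this test uses the 39 h values that picked the genes. It was passed by 114 of the 141 as larger at 76 h (9.64% of all genes) and by 1 as smaller. That gene was GDPD2, at 1.83, 1.72 and 0.42 on the log2 scale (39, 52 and 76 h). At 52 h 14 were larger (0.312%) and 1, the osmotin gene OSM34, was smaller (1.18, −0.16 and 1.52 at the 3 times). IPS1 reached mean levels of 15.9, 53.4 and 266 TPM in −Fe−P at the 3 times, and AT4 reached 384, 586 and 1040.1 TPM. The precursor MIR399d, near 0 at 39 h, had 46.5, 25.4 and 30.0 TPM in −Fe−P at 76 h and was listed at 0 in −Fe+P.

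Of the 14 lower genes, 11 were called lower at 52 h (0.994% of all genes) and 13 at 76 h (4.87%), and the median log2 fold change was −1.13, −1.52 and −1.93 at the 3 times. The difference was more negative at 76 h than at 39 h in 9 of them (17.3% of all genes) and at 52 h in 2 (1.9%), AT5G51440 and the NAC transcription factor gene NAC044. GLN1;4 went the other way, with −1.08, −0.29 and 0.62 at 39, 52 and 76 h, and was the one gene called at neither later time. The ribosomal and nucleolar list reached medians of −0.84 and −1.37 at 52 and 76 h, with 4 and 19 of 20 called lower, while the anthocyanin list gave 1 and 13 of 15 called higher.

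**Figure D5:**
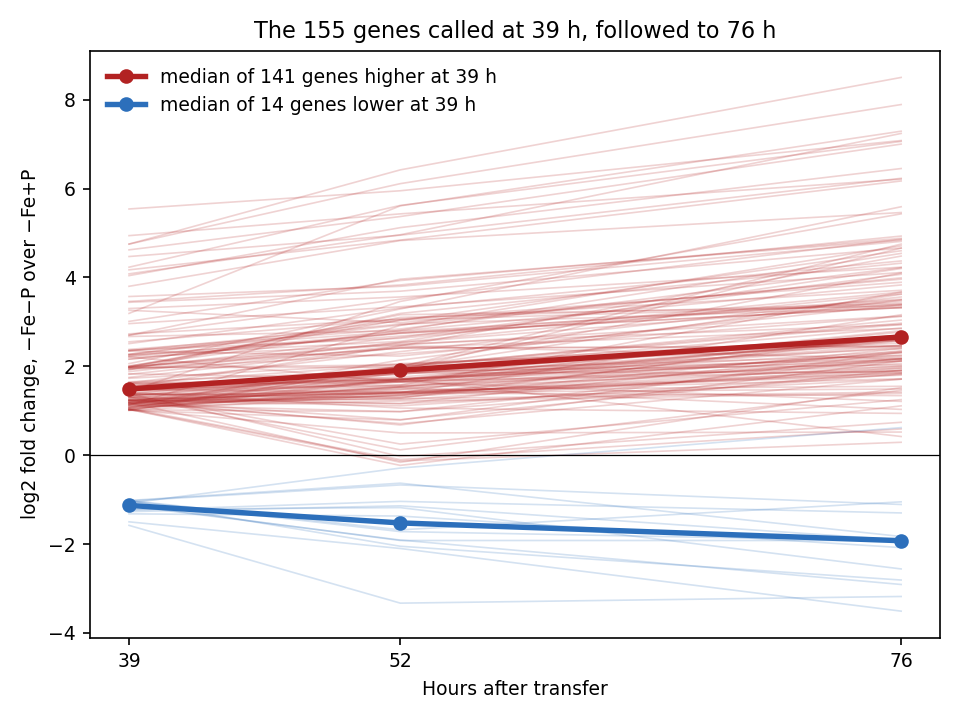
Log2 fold change of −Fe−P over −Fe+P (y axis) at 39, 52 and 76 h (x axis) for the 141 genes called higher (red) and the 14 called lower (blue) at 39 h, thin lines for genes and thick lines for medians. The medians move apart, to 2.66 and −1.93 at 76 h.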

How the data were processed

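RNA-seq of Col-0 shoots in 9 groups of 3 samples was deposited as 1 table of TPM values. The authors sequenced polyadenylated RNA, aligned the reads with HISAT2 to TAIR10, and computed the deposited TPM per gene; versions, the counting step and its strand setting are not given in the sources used here. No columns of comparisons were used. TPM keeps no depth by itself, but the low values were whole multiples of a read in all 24561 genes checked (within 0.02 reads), which gave 25.6 to 56.5 reads per sample in units of 1e+06 (median of 35 reads at about 1 TPM).

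Genes that averaged 1 TPM or more were fitted as log2(TPM + 0.5) in limma 3.58.1 (R 4.3.3), with 9 group means, a variance trend and 18 residual degrees of freedom. Benjamini-Hochberg adjustment ran over all tested genes, and calls needed an adjusted p under 0.05 and 2-fold. An exact permutation test of 3 against 3 cannot go below 0.1 and was not used. Fits were tested on simulated data. Named genes were up to 12 per direction among called, non-overlapping genes of at least 5 TPM in the higher group, the 3 called genes per list with the largest change, members of the phosphate, iron, ascorbate, NF-YA and mitochondrial lists, and bZIP58, PHT4;4 and VTC4. Genes and 21 lists were chosen with earlier results of these data known. The main fit did not pair samples by replicate number. Symbols matched 32835 IDs; sequences came from RefSeq TAIR10.1.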

Additional observations from a re-analysis of the deposited data

Results flagged for a closer look

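The difference between −Fe−P and −Fe+P was of another size later than at 39 h in the genes listed here, as tested by the change of the difference in the same limma fit (adjusted p under 0.05 over all genes). From 39 to 76 h the log2 fold change grew by 3.76 in IPS1, 3.16 in SPX3, 3.14 in PEPC1, 2.83 in AT3G43110, 2.40 in MGD3 (MGDC) and 2.38 in AT3G25240. It grew by 2.0 in PS2, 1.77 in AT5G20790, 1.66 in AT1G08310, 1.55 in AT1G23110, 1.28 in AT4 (AT5G03545) and 1.24 in GDPD1 (SRG3). In the −Fe−P samples the mean of PEPC1 was 29.5, 92.9 and 312 TPM at 39, 52 and 76 h. Already at 52 h the change was 1.68 in IPS1, 1.39 in AT3G43110, 1.35 in PEPC1 and 1.02 in AT1G08310. The phosphodiesterase gene GDPD2 went the other way by 76 h (−1.41), and the osmotin gene OSM34 did so at 52 h only (−1.34).

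Of the genes lower in −Fe−P, the difference became more negative by 76 h in PDF1.2 (−2.02), NAC044 (−1.78), TOM7-2 (−1.77), AT5G51440 (−1.60), AT2G21640 (−0.80) and RR16 (−0.63). It was more negative at 52 h in AT5G51440 (−1.75) and NAC044 (−1.02). GLN1;4 moved upward by 76 h (1.69). Genes that were called at 39 h entered this test with the 39 h values that picked them.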

How the results depend on the processing

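The main fit gave 141 genes higher and 14 lower in −Fe−P at 39 h, and no called gene changed direction under any setting run. Pseudocounts of 0.1 and 1 gave 159 and 124 higher and 21 and 7 lower, since a higher pseudocount shrinks low genes below the fold minimum. Without the fold minimum the counts were 543 and 392. A minimum of 5 TPM left 107 and 11, no filter 135 and 14, median-of-ratios scaling 140 and 14, the 6 compared samples alone 119 and 11, no variance trend 141 and 14, and a robust trend 138 and 13. Leaving out 1 of the 6 samples gave 130 to 180 higher and 14 to 27 lower, and 32 to 39 calls in the phosphate lists against 36; the highest counts came without −Fe−P replicate 1. The difference between media changed at least 2-fold in size from 39 to 76 h in 855 genes (668 to 1028 with a replicate left out, 5085 without the fold minimum) and from 39 to 52 h in 35 genes (15 to 107, and 419); the alternatives for 52 h were chosen after seeing the data. Without −Fe−P replicate 1 the 2 counts were 668 and 107, without −Fe+P replicate 2 the count for 52 h was 15, and without −Fe−P replicate 3 it was 21. Fitting the 6 samples alone gave no value for these changes. Named genes near a threshold lost their call when other libraries were left out: PHT1;1 (0.97) and PHO2 (0.99) without −Fe−P replicate 3, MYB90 (0.65) and EXPA8 (−0.84) without −Fe+P replicate 3, PDF1.2 (−1.27) and DGD1 (0.97) without −Fe+P replicate 2, and NPC4 (0.86) and P5CS1 (0.99) without −Fe+P replicate 1. These genes, KIN1, VSP2, GDPD6 and the other genes just past 2-fold are less certain than the rest.

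The labels give the groups the same replicate numbers and do not say whether these mark pairs. Deviations of same-numbered −Fe−P and −Fe+P samples at 39 h had correlations of 0.36, 0.07 and 0.15, against −0.42 to 0.33 for unlike numbers. So few values cannot decide whether the samples were paired. With a replicate block the calls were 139 higher and 15 lower, 36 in the phosphate lists, 860 for 76 h and 41 for 52 h. Depth limits genes near 1 TPM, where a sample holds about 35 reads, and the precursors of microRNAs, which had fewer.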
